A study of Mus musculus with 22 samples.

Results

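The 5 genes described here are the adult alpha globin genes Hba-a1 and Hba-a2, the adult beta globin genes Hbb-bs and Hbb-bt, and Alas2. They were taken by name, and each symbol was matched to its Ensembl row in a table of 23119 genes. All 5 passed the filter on low counts in every comparison. Total RNA was sequenced from bulk striatum of adult male C57BL/6J mice. Oxycodone mice self-administered the opioid at 0.25 mg/kg per infusion for 4 hours per day over 14 days, and saline mice were yoked controls infused with saline on the same schedule. The dorsal striatum gave 5 oxycodone and 5 saline libraries, and the ventral striatum gave 6 oxycodone and 6 saline libraries.

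Haemoglobin carries oxygen as a tetramer of alpha chains and beta chains, each holding a haem group. Its messenger RNA is made in red cell precursors, is still present in young circulating red cells, and has also been reported at low levels in neurons and glia of rodents. Alas2 encodes the form of 5-aminolevulinate synthase, the first enzyme of haem synthesis, that red cell precursors use, whereas other cells use Alas1. In bulk tissue more cells of a type and more RNA per cell cannot be told apart, and this holds for each level given here.

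The alpha genes lie near each other on chromosome 11 and the beta genes on chromosome 7, and each pair has almost the same coding sequence. In GENCODE M21 on GRCm38, Hba-a1 (ENSMUSG00000069919) spans chr11:32283511-32284465 and Hba-a2 (ENSMUSG00000069917) spans chr11:32296489-32297298, both on the plus strand. Hbb-bs (ENSMUSG00000052305) spans chr7:103826534-103828096 and Hbb-bt (ENSMUSG00000073940) spans chr7:103812524-103813996, both on the minus strand. Alas2 (ENSMUSG00000025270) spans chrX:150547375-150570638 on the plus strand. The coding sequences of Hba-a1 and Hba-a2 were identical at 425 of 426 positions, and those of Hbb-bs and Hbb-bt at 440 of 441 positions. Counting from the A of the start codon, the alpha difference was C381T (Hba-a1 to Hba-a2) and the beta difference was C417T (Hbb-bs to Hbb-bt). The 25 bases around each difference follow, from the GENCODE M21 transcripts, with the differing base in capitals, because these bases are all that separates the coding sequences when reads are assigned to a copy.
Hba-a1 coding: tgcctctctggaCaaattccttgcc
Hba-a2 coding: tgcctctctggaTaaattccttgcc
Hbb-bs coding: ggctggagtggcCgctgccctggct
Hbb-bt coding: ggctggagtggcTgctgccctggct
Both pairs differed more outside the coding sequence. The whole beta transcripts had 581 identical positions of 705 aligned, with 45 substitutions and 79 gap positions. The whole alpha transcripts, 699 bases for Hba-a1 and 554 for Hba-a2, had 537 identical positions of 715 aligned, with 1 substitution and 177 gap positions. How reads that match both copies were counted is not given in the sources used here, so the split of counts within each pair is uncertain. The sum of a pair does not depend on how shared reads were divided between the copies. Any shared reads that were left out would be missing from the sum as well.

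The promoters are shown because the alpha copies share theirs and the beta copies do not. The 200 bases before each RefSeq transcript start (GRCm38.p6, 5′ to 3′ on the strand of the gene) follow. The RefSeq starts of all 5 genes lie inside the longer GENCODE gene spans given above. Capitals mark matches on either strand to 4 short motifs. The GATA box, searched as GATAA, is bound by GATA factors such as the red cell regulator GATA1. The CACCC box, searched by those letters, is bound by KLF factors. The CCAAT box, searched by its letters, is bound by NF-Y, which serves many promoters. The TATA box, searched as TATAA, is bound by the TATA-binding protein TBP.
Hba-a1 promoter, chr11:32283472-32283671, plus strand: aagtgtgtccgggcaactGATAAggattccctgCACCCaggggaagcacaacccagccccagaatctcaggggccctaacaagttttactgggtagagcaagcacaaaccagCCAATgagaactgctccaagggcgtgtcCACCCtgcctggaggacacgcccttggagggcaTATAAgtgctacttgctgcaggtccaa
Hba-a2 promoter, chr11:32296292-32296491, plus strand: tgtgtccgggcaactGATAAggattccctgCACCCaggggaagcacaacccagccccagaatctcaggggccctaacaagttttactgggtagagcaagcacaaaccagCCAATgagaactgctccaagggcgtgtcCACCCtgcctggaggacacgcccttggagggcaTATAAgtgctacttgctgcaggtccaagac
Hbb-bs promoter, chr7:103827929-103828128, minus strand: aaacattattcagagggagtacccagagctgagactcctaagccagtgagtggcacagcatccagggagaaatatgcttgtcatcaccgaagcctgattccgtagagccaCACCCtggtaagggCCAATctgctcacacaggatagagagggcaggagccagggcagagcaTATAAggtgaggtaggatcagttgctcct
Hbb-bt promoter, chr7:103813924-103814123, minus strand: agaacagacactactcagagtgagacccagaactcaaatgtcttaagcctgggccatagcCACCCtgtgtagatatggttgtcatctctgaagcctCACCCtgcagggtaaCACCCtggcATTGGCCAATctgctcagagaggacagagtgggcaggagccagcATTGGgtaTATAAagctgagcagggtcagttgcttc
Alas2 promoter, chrX:150547217-150547416, plus strand: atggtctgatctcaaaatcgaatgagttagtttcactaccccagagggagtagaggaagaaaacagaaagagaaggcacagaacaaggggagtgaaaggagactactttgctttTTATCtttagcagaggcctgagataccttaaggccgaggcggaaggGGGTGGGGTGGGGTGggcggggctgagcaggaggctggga
The alpha windows shared 1 identical run of 197 bases, and the beta windows were 69.6% identical. Each alpha window held 1 GATAA, 2 CACCC, 1 CCAAT and 1 TATAA match. The Hbb-bs window held 1 CACCC, 1 CCAAT and 1 TATAA match, and the Hbb-bt window held 3 CACCC, 3 CCAAT and 1 TATAA match. Neither beta window held GATAA. The Alas2 window held 1 GATAA and 3 CACCC matches, all on the other strand, and neither CCAAT nor TATAA. Among 32851 RefSeq mouse promoters of the same length, GATAA occurred in 18.1%, CACCC in 45.5%, CCAAT in 29.4% and TATAA in 18.6%. In these windows no match overlapped a match of another motif. A match describes the letters in the window and says nothing of binding.

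**Figure D1:**
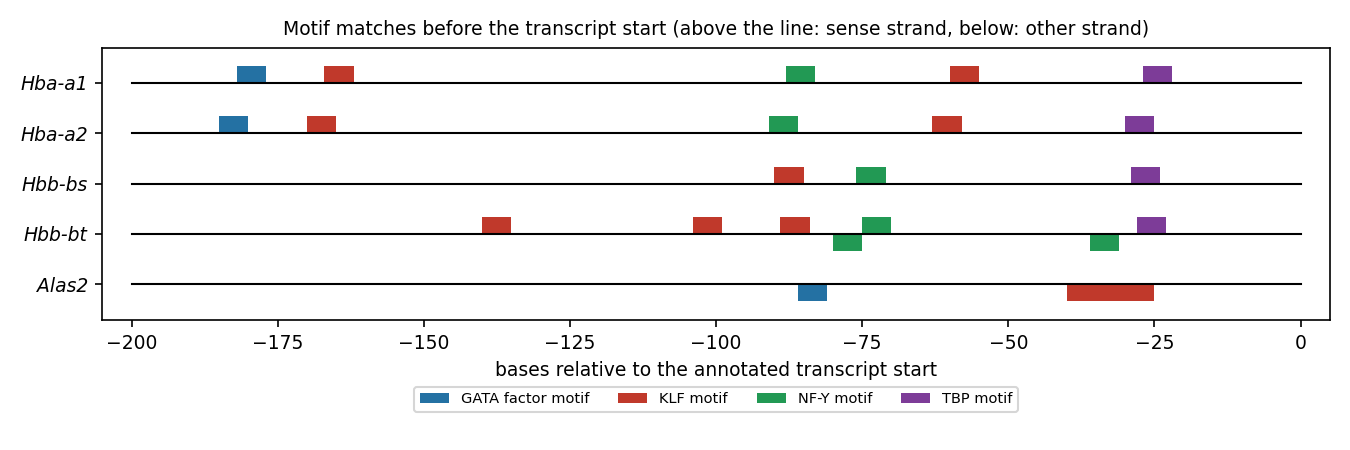
Matches to the motifs of GATA factors, KLF factors, NF-Y and TBP (colours) in the 200 bases before the RefSeq transcript start of each gene; the horizontal axis is the distance in bases from the start, and blocks above a line are on the gene's own strand. The alpha copies carry the same matches shifted by a few bases, and the Alas2 window holds only matches of GATA and KLF factors.

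Hbb-bs was by far the most abundant of the 5 genes in each group. Levels between genes are compared per length, as CPM (counts scaled to library size, with TMM factors over all 22 libraries) per kilobase of exon. Hbb-bs averaged 975 ± 402 CPM per kb in oxycodone dorsal libraries and 439 ± 88.8 in saline dorsal libraries (SD, n = 5 each). In the ventral striatum it averaged 290.4 ± 183 CPM per kb in oxycodone libraries and 211 ± 165 in saline libraries (SD, n = 6 each). By these means it ranked 10 of 22205 named genes in oxycodone dorsal libraries and 30 in saline dorsal libraries, then 34 in oxycodone ventral libraries and 55 in saline ventral libraries. Hba-a1 came next in every group, at mean levels per length of 238 and 122 CPM per kb in oxycodone and saline dorsal libraries and 65.0 and 49.5 CPM per kb in oxycodone and saline ventral libraries. In dorsal libraries Hba-a2 followed, then Hbb-bt and Alas2, whose means differed by less than the SD of Hbb-bt and whose order changed between libraries in both treatments. In every ventral library Hba-a1 was above Hba-a2 and Hba-a2 above Hbb-bt. The means of these genes differed by less than their SDs between libraries in both treatments. Alas2 was lowest at 16.5 CPM per kb in oxycodone and 15.0 CPM per kb in saline ventral libraries. Counts behind these levels were 85 or more per gene and library, and the 4 haemoglobin genes together took a mean of 0.102% of the counts in oxycodone dorsal, 0.0475% in saline dorsal, 0.0339% in oxycodone ventral and 0.0248% in saline ventral libraries.

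Library totals ran from 13797075 to 17836414 counts in oxycodone dorsal, 11314079 to 21921963 in saline dorsal, 8408829 to 10007992 in oxycodone ventral and 9172185 to 11000345 in saline ventral libraries. Striatal markers were present in the dorsal libraries, with the dopamine receptor gene Drd1 at 449.8 to 538 CPM in oxycodone and 432 to 529 CPM in saline libraries. In the ventral libraries Drd1 ran from 157 to 322 CPM in oxycodone and from 5.76 to 196 CPM in saline libraries, the lowest value being saline replicate 6. That library and oxycodone ventral replicate 6, whose summed choroid plexus markers were 1824 CPM, stand apart from their groups, so ventral results are also given without both. A suffix P, not explained in the labels, ends the titles of 5 dorsal libraries, 3 oxycodone and 2 saline. Oxycodone dorsal replicates 2 and 3 share a title number, as do saline dorsal replicates 2 and 3, and nothing in the labels says whether libraries come from separate mice. P-values therefore measure the spread between these libraries, which may in part be technical.

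In the dorsal striatum all 5 genes had higher mean levels after oxycodone, and Alas2 was the only one whose difference passed the test. The 4 haemoglobin genes summed to 1011 ± 442 CPM in oxycodone libraries and 476 ± 79.3 CPM in saline libraries (SD, n = 5 each). Alas2 averaged 64.5 ± 18.9 CPM in oxycodone libraries and 38.1 ± 5.34 CPM in saline libraries. Of 14595 genes tested in this comparison 0.206% were called at an adjusted p under 0.05, and 1 of the 5 genes was among them.

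Hba-a1, a source of alpha chains, had 215, 152, 145, 94.6 and 358 CPM in the 5 oxycodone dorsal libraries, against 97.7, 126, 89.6, 81.2 and 101 CPM in the 5 saline dorsal libraries. Oxycodone replicate 4 lay inside the saline range and the other 4 above it. The fitted log2 fold change was 0.97 (SE 0.34), and it did not pass the edgeR quasi-likelihood test over all genes (adjusted p = 0.731). Hba-a2, the other alpha gene, had 69.4, 28.2, 36.1, 21.6 and 80.9 CPM in oxycodone libraries, against 27.5, 36.1, 12.6, 26.8 and 29.8 CPM in saline libraries. Only oxycodone replicates 1 and 5 exceeded every saline library. Its log2 fold change was 0.83 (SE 0.43, edgeR adjusted p = 0.943).

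Hbb-bs, the more abundant beta gene, had 881, 658, 586, 409 and 1209.7 CPM in oxycodone dorsal libraries, against 444, 316, 258, 321 and 346 CPM in saline dorsal libraries. As for Hba-a1, oxycodone replicate 4 lay inside the saline range and the other 4 above it. Its fitted difference was the largest of the 5, a 2.22-fold higher level (95% interval 1.39 to 3.55; log2 1.15, SE 0.29), and it did not pass the edgeR test over all genes (adjusted p = 0.402). DESeq2 called it (adjusted p = 0.0227), as did edgeR without robust dispersions (adjusted p = 0.00218). Hbb-bt, the less abundant beta gene, had 25.5, 19.6, 16.5, 13.9 and 35.1 CPM in oxycodone libraries, against 16.6, 19.8, 10.6, 10.6 and 9.17 CPM in saline libraries. Oxycodone replicates 1 and 5 exceeded every saline library, and the groups overlapped. Its log2 fold change was 0.74 (SE 0.24, edgeR adjusted p = 0.413).

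Alas2, the haem synthesis gene, had 61.2, 52.4, 56.1, 54.9 and 97.8 CPM in oxycodone dorsal libraries, against 42.9, 31.0, 39.3, 43.0 and 34.1 CPM in saline dorsal libraries. Every oxycodone library lay above every saline library, an order seen in 0.843% of all genes tested. Alas2 was 1.69-fold higher (95% interval 1.37 to 2.09; log2 0.76, SE 0.15, edgeR adjusted p = 0.0197), and ranked 17 by p of 14595 genes. The fitted change was smaller than those of Hba-a1, Hba-a2 and Hbb-bs, and its SE was the smallest of the 5. The call depended on single libraries. The adjusted p was 0.121 without oxycodone replicate 5, and it was 0.0852, 0.0538 and 0.104 without saline replicate 2, 3 or 5. Within libraries with the suffix P the log2 fold change of Alas2 was 0.76 (edgeR adjusted p = 0.999), and within libraries without it 0.67 (adjusted p = 0.630). Hbb-bs was 1.34 (adjusted p = 0.999) within libraries with the suffix and 1.07 (adjusted p = 4.132e-05) within those without it. These fits rest on few libraries. With the suffix they were oxycodone replicates 3, 4 and 5 and saline replicates 3 and 4. Without it they were oxycodone replicates 1 and 2 and saline replicates 1, 2 and 5.

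**Figure D2:**
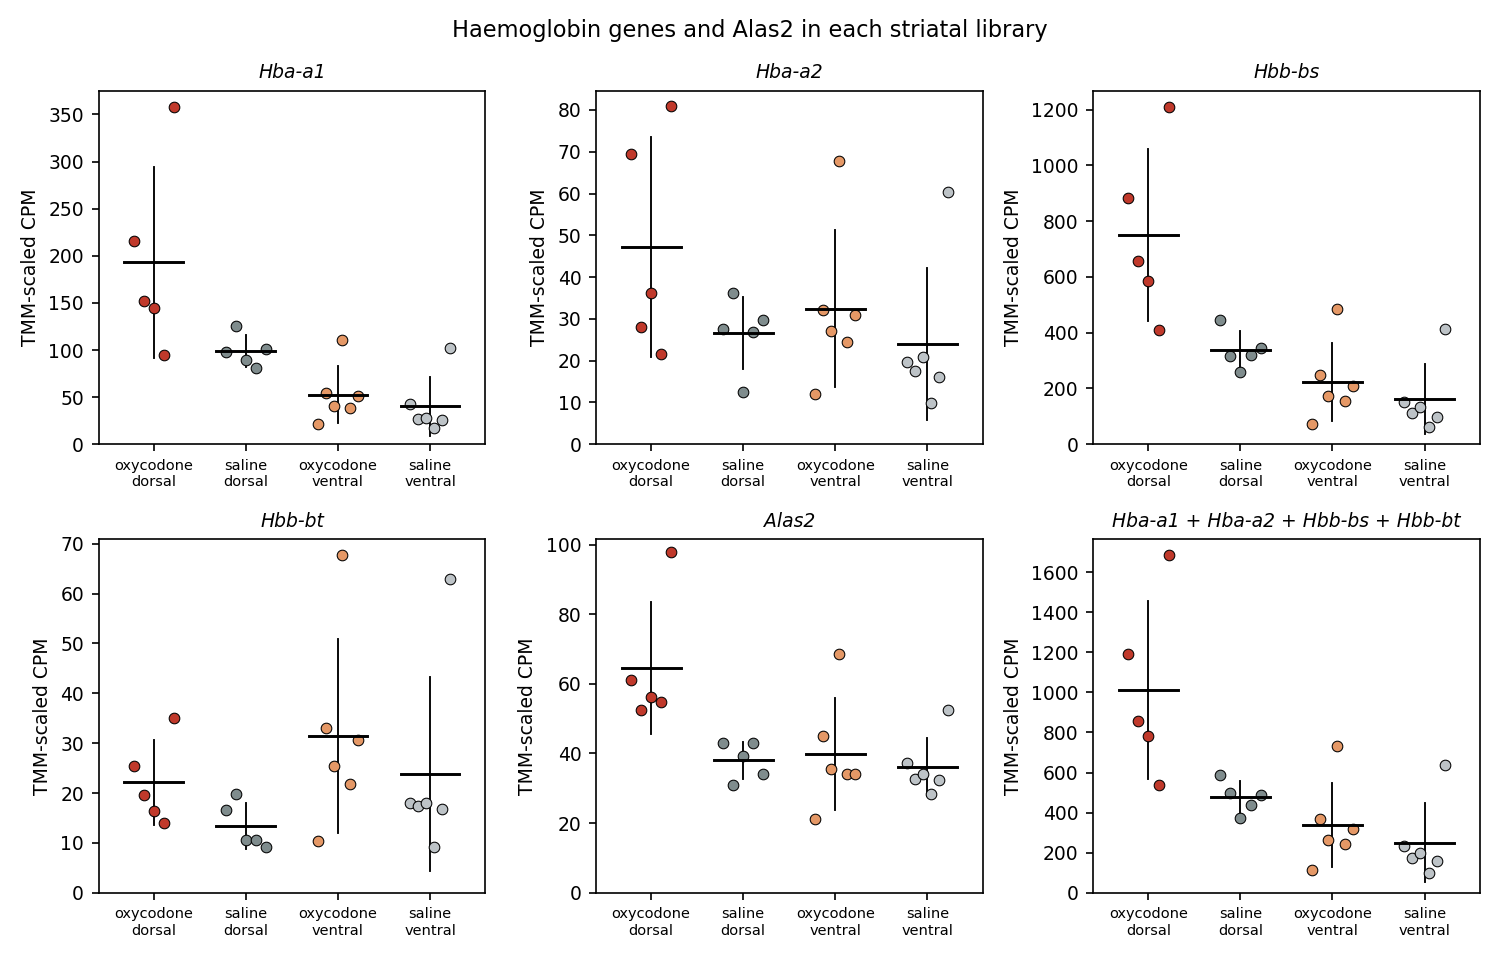
TMM-scaled CPM of each gene, and of the 4 haemoglobin genes summed, in each library (points), with the group mean (horizontal bar) and 1 SD either way (vertical line); the groups run from oxycodone dorsal to saline ventral. In dorsal striatum the 5 Alas2 values after oxycodone lie above the 5 saline values, and in ventral striatum single libraries, oxycodone replicate 4 and saline replicate 6, stand above the rest.

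In the ventral striatum the 5 genes differed between oxycodone and saline by less than the spread between libraries. The 4 haemoglobin genes summed to 339.8 ± 209 CPM in oxycodone libraries and 249.97 ± 196 CPM in saline libraries (SD, n = 6 each). The edgeR test called 0% of 14116 genes here, with 1289 genes (9.13%) at an unadjusted p under 0.05. DESeq2 called 38 genes and limma-voom 61, and neither called any of the 5.

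Hba-a1 ran from 21.9 through a median of 45.7 to 110.4 CPM in oxycodone ventral libraries, against 16.8, 27.2 and 102 CPM as lowest, median and highest in saline ventral libraries. Hba-a2 ran from 12.0 through 29.1 to 67.9 CPM in oxycodone libraries, against 9.94, 18.6 and 60.4 CPM in saline libraries. The lowest, median and highest values of Hbb-bs were 71.7, 189.7 and 485 CPM in oxycodone libraries, against 60.7, 124 and 413 CPM in saline libraries. For all 3 genes the groups overlapped along nearly their whole range when saline replicate 6 is included, and 1 oxycodone library, replicate 4, exceeded every saline library. Among the other saline libraries the highest value was 42.8 CPM for Hba-a1, 20.9 CPM for Hba-a2 and 152 CPM for Hbb-bs. Every oxycodone library except replicate 1 exceeded these values of Hba-a2 and Hbb-bs. Oxycodone replicates 2, 4 and 6 exceeded that of Hba-a1. Hbb-bt ran from 10.4 through 28.0 to 67.8 CPM in oxycodone libraries, against 9.18, 17.7 and 62.8 CPM in saline libraries. Alas2 ran from 21.2 through 34.8 to 68.6 CPM in oxycodone libraries, against 28.4, 33.3 and 52.4 CPM in saline libraries. Its lowest and its highest library were both oxycodone libraries.

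The fitted log2 fold changes in ventral striatum were 0.39 for Hba-a1, 0.43 for Hba-a2, 0.46 for Hbb-bs, 0.40 for Hbb-bt and 0.14 for Alas2, with edgeR adjusted p between 0.781 for Hbb-bs and 0.875 for Alas2. The 95% intervals were wide and reached from 0.67-fold to 2.86-fold for Hbb-bs and from 0.77-fold to 1.58-fold for Alas2. Without both sixth libraries the log2 fold changes were larger, at 0.93 for Hba-a1, 0.95 for Hba-a2, 1.02 for Hbb-bs, 0.99 for Hbb-bt and 0.31 for Alas2 (edgeR adjusted p from 0.475 to 0.726). Without oxycodone replicate 4 Hbb-bs was 0.075 and Hba-a1 was 0.03. Within sequencing lane 1, with 4 libraries a group, the log2 fold change was 1.09 for Hbb-bs and 0.37 for Alas2. Within lane 2, with 2 libraries a group including both sixth libraries, all 5 had the opposite sign, with -0.49 for Hbb-bs and -0.30 for Alas2. None of these passed the test.

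**Figure D3:**
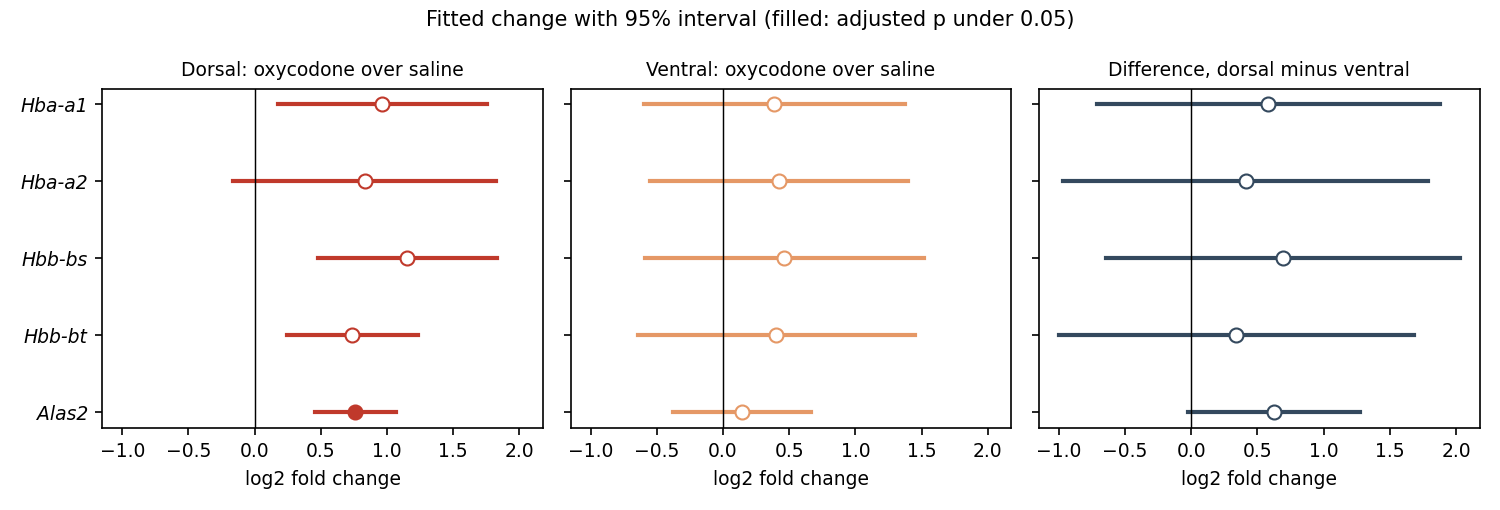
Fitted log2 fold change of each gene after oxycodone in dorsal striatum, in ventral striatum, and the difference between the regions (points), with 95% intervals (lines); filled points have an adjusted p under 0.05 over all genes. Alas2 in dorsal striatum is the only filled point, and every ventral interval crosses 0.

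The oxycodone effect itself was not shown to differ between the regions. The dorsal change minus the ventral change was 0.63 on the log2 scale for Alas2 (SE 0.31, unadjusted p = 0.0593) and 0.69 for Hbb-bs (SE 0.64), with an edgeR adjusted p of 0.981 for each of the 5 genes. The edgeR test called 0% of 14938 genes for this difference, and 674 genes (4.51%) had an unadjusted p under 0.05. DESeq2 and limma-voom also called 0 genes.

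The spread between libraries of 1 group was large for haemoglobin and differed between groups. The SD of the summed haemoglobin CPM was 43.8% of the mean in oxycodone dorsal, 16.7% in saline dorsal, 61.6% in oxycodone ventral and 78.2% in saline ventral libraries. The SD of Alas2 was 29.3%, 14.0%, 40.3% and 23.4% of the mean in the same groups. In ventral striatum the 5 genes went up and down together from library to library. Pearson correlations of log2 CPM over 12 ventral libraries ran from 0.898 for Hba-a1 with Alas2 to 0.995 for Hba-a2 with Hbb-bt (two-sided permutation test, adjusted p of 0.0001 or less for all 10 pairs over 20 relations, from an unadjusted 1e-05, the smallest that 100000 resamples can give, for 7 of the pairs). Spearman rho ran from 0.902 to 1. Without the 2 libraries farthest from the median the 10 ventral correlations were 0.75 to 0.988, with adjusted p up to 0.0136.

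In dorsal striatum the correlations over 10 libraries were 0.624 to 0.921, and 9 of 10 had an adjusted p under 0.05 by the permutation test. Spearman rho ran from 0.394 to 0.879, with an adjusted p under 0.05 for 5 of 10 pairs. Without the 2 farthest libraries the dorsal correlations fell to between -0.03 and 0.748, and none of the 10 had an adjusted p under 0.05. The 3 highest were 0.748 for Hba-a1 with Hbb-bs, 0.745 for Hba-a1 with Hbb-bt and 0.719 for Hbb-bs with Alas2 (adjusted p = 0.0677, 0.0677 and 0.0726). The dorsal correlations also include the difference between treatments. Reads from the near-identical coding sequences can enter Hba-a1 with Hba-a2 and Hbb-bs with Hbb-bt.

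**Figure D4:**
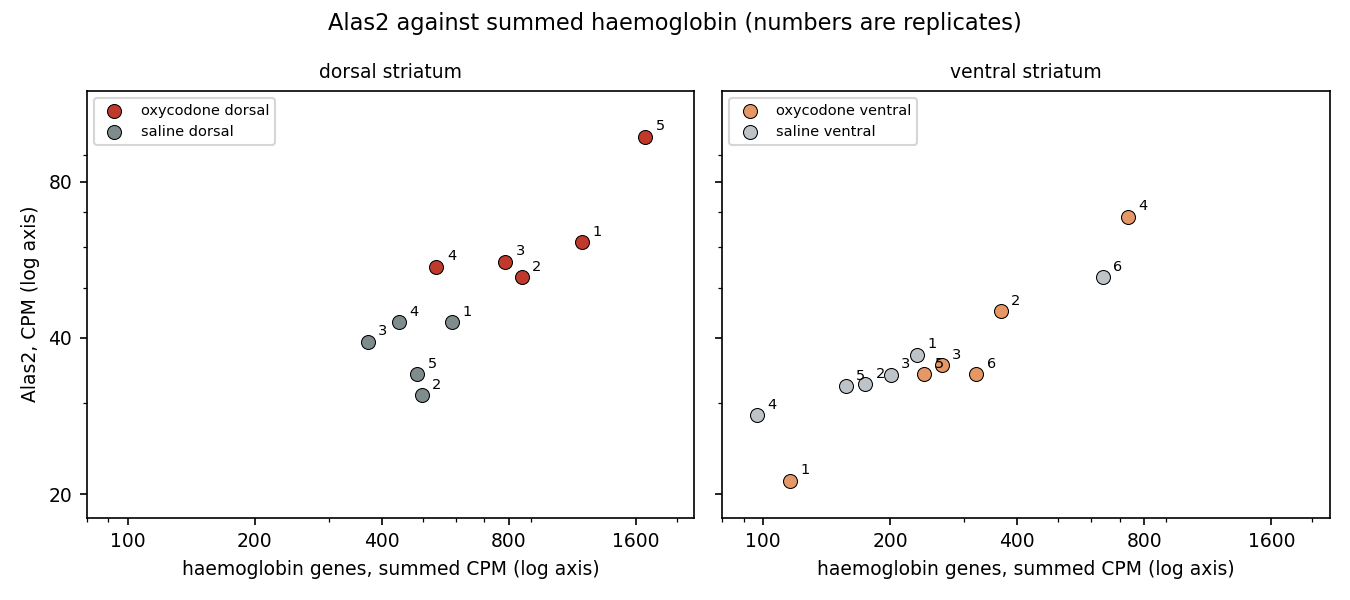
Alas2 CPM against the summed CPM of the 4 haemoglobin genes in each library, on log axes, for dorsal (left) and ventral striatum (right); numbers are replicates. Ventral libraries lie along 1 line with oxycodone replicate 4 and saline replicate 6 at its upper end, and dorsal oxycodone libraries lie above the dorsal saline libraries in Alas2.

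Between the regions Hba-a1 was higher in dorsal libraries of both treatments and Hbb-bs was higher in dorsal libraries of oxycodone mice, while the minor copies Hba-a2 and Hbb-bt did not pass the test in either. Dorsal and ventral libraries differ in depth and in how their titles are numbered, and region and library series cannot be told apart. The mitochondrial share was 2.93% to 4.12% of counts across dorsal libraries, against 5.98% to 9.25% across ventral ones. Of 16 endothelial markers 10 were higher and 2 lower in dorsal libraries of oxycodone mice, against 47.2% of all genes tested called in either direction. In dorsal libraries of saline mice 8 were higher and 1 lower, against 45.8%. Of 8 microglial markers 7 and 6 were higher in dorsal libraries of oxycodone and of saline mice. Markers of other cell types were called too, against the same 47.2% and 45.8% of all genes. In the same order 5 and 7 of 8 oligodendrocyte markers were higher in dorsal libraries. So were 6 and 6 of 12 markers of striatal projection neurons, while 4 and 4 of 7 markers of glutamatergic neurons were lower. The counts for both neuron lists were not far from the share over all genes. The part of these cell types in the region differences was not tested. In oxycodone mice Hba-a1 averaged 193 ± 102 CPM in dorsal and 52.7 ± 30.4 CPM in ventral libraries, a log2 fold change of 1.85 (SE 0.44, edgeR adjusted p = 0.00666). Hbb-bs averaged 749 ± 308 CPM in dorsal and 223 ± 141 CPM in ventral libraries of oxycodone mice, a log2 fold change of 1.72 (SE 0.45, edgeR adjusted p = 0.0109). These 2 of the 5 genes were called, against 47.2% of 14375 genes in this comparison, so a call here is common. Alas2 had a log2 fold change of 0.67 (SE 0.26, adjusted p = 0.0535), Hba-a2 of 0.52 (adjusted p = 0.387) and Hbb-bt of -0.53 (adjusted p = 0.326) in the edgeR test. With the copies summed, beta counts were 1.57 higher in dorsal libraries on the log2 scale (adjusted p = 0.0165) and alpha counts 1.47 higher (adjusted p = 0.0213). Hbb-bs and Hba-a1 make up most of these sums.

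In saline mice Hba-a1 averaged 98.9 ± 16.7 CPM in dorsal and 40.2 ± 31.4 CPM in ventral libraries, a log2 fold change of 1.28 (SE 0.41, edgeR adjusted p = 0.0261). It was the 1 gene of the 5 that was called, against 45.8% of 14433 genes. Hbb-bs had a log2 fold change of 1.05 (SE 0.43, adjusted p = 0.0688), and 1.60 (adjusted p = 0.0001405) without saline ventral replicate 6. Alas2 was close in level, at 38.1 ± 5.34 CPM in dorsal and 36.1 ± 8.44 CPM in ventral libraries of saline mice, with a fold of 1.05 (95% interval 0.84 to 1.31). Hba-a2 had a log2 fold change of 0.13 and Hbb-bt of -0.85, and neither passed the edgeR test. Without saline ventral replicate 6 Hba-a2 was called, at 0.67 (adjusted p = 0.0242). With each pair of copies summed, the saline log2 fold changes were 0.95 for alpha (adjusted p = 0.0824) and 0.90 for beta (adjusted p = 0.109), and neither sum was called.

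The share of each minor copy separated the regions completely. Hbb-bt made up 2.91 ± 0.223% of the beta counts in dorsal and 12.5 ± 0.416% in ventral libraries of oxycodone mice. In saline mice it made up 3.85 ± 1.25% in dorsal and 12.8 ± 1.36% in ventral libraries. The highest dorsal share of any library was 5.89% and the lowest ventral share was 10.6%. Hba-a2 made up 19.4 ± 3.2% of the alpha counts in dorsal and 37.9 ± 1.52% in ventral libraries of oxycodone mice, and 20.9 ± 4.90% in dorsal and 37.9 ± 3.80% in ventral libraries of saline mice. The highest dorsal share was 24.8% and the lowest ventral share 31.5%. Each of these 4 region differences had an exact permutation p of 0.004329 (two-sided; adjusted p = 0.0173 over 16 tests of composition), and in each every dorsal library lay below every ventral library. Strain and sex were the same in all 4 groups. The part played by the assignment of reads between copies was not tested.

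Oxycodone and saline libraries of the same region were closer in these shares than the regions were. The Hbb-bt share differed by -0.94 percentage points in dorsal (exact permutation p = 0.0952, adjusted p = 0.191) and -0.32 in ventral striatum (exact permutation p = 0.587, adjusted p = 0.722), oxycodone minus saline. The Hba-a2 share differed by -1.47 percentage points in dorsal (exact permutation p = 0.564) and by 0.0089 in ventral striatum (exact permutation p = 0.996).

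The balance of beta to alpha counts was similar in the 4 groups. Beta counts were 76.9 ± 2.01% of the counts of the 4 haemoglobin genes in oxycodone dorsal, 73.4 ± 4.10% in saline dorsal, 74.2 ± 1.96% in oxycodone ventral and 74.0 ± 1.26% in saline ventral libraries. Per length the shares were 77.2%, 73.7%, 74.0% and 73.8% in the same groups. None of the 4 comparisons passed the exact permutation test after adjustment (adjusted p from 0.139 to 0.880), the largest difference being 3.45 percentage points between oxycodone and saline dorsal libraries. Without oxycodone dorsal replicate 5 the dorsal minus ventral difference in oxycodone mice was 3.37 points and was called (adjusted p = 0.0435).

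Alas2 relative to haemoglobin was lower on average in dorsal than in ventral libraries. The log2 ratio of Alas2 counts to summed haemoglobin counts averaged -3.90 ± 0.38 in dorsal and -2.97 ± 0.34 in ventral libraries of oxycodone mice, a difference of -0.93 (exact permutation p = 0.00866, adjusted p = 0.0277). In saline mice it averaged -3.64 ± 0.33 in dorsal and -2.55 ± 0.60 in ventral libraries, a difference of -1.09 (exact permutation p = 0.0130, adjusted p = 0.0346). With 1 library left out the saline call held in 1 of 11 tests, the one without saline ventral replicate 6 (adjusted p = 0.0231), and adjusted p was 0.0508 to 0.0762 in the others. The oxycodone call held in 8 of 11, with an adjusted p of 0.0508 without oxycodone dorsal replicate 1, 2 or 3. Oxycodone minus saline differences were -0.26 in dorsal and -0.43 in ventral striatum, and neither passed the exact permutation test (adjusted p = 0.335 and 0.267). Without saline ventral replicate 6 the ventral difference was -0.64 and was called (adjusted p = 0.0297), and without both sixth libraries it was -0.59 (adjusted p = 0.0544). Ventral libraries with much haemoglobin had low ratios. Summed haemoglobin is itself the denominator of the ratio, so part of this relation is built in. Oxycodone ventral replicate 4 (731 CPM summed) had -3.41 and saline ventral replicate 6 (638 CPM) had -3.61, both inside the dorsal range of their treatment. Saline ventral replicate 4, with the lowest sum (96.7 CPM), had the highest ratio, -1.77. The part of the haemoglobin level in the region difference of the ratio was not tested.

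**Figure D5:**
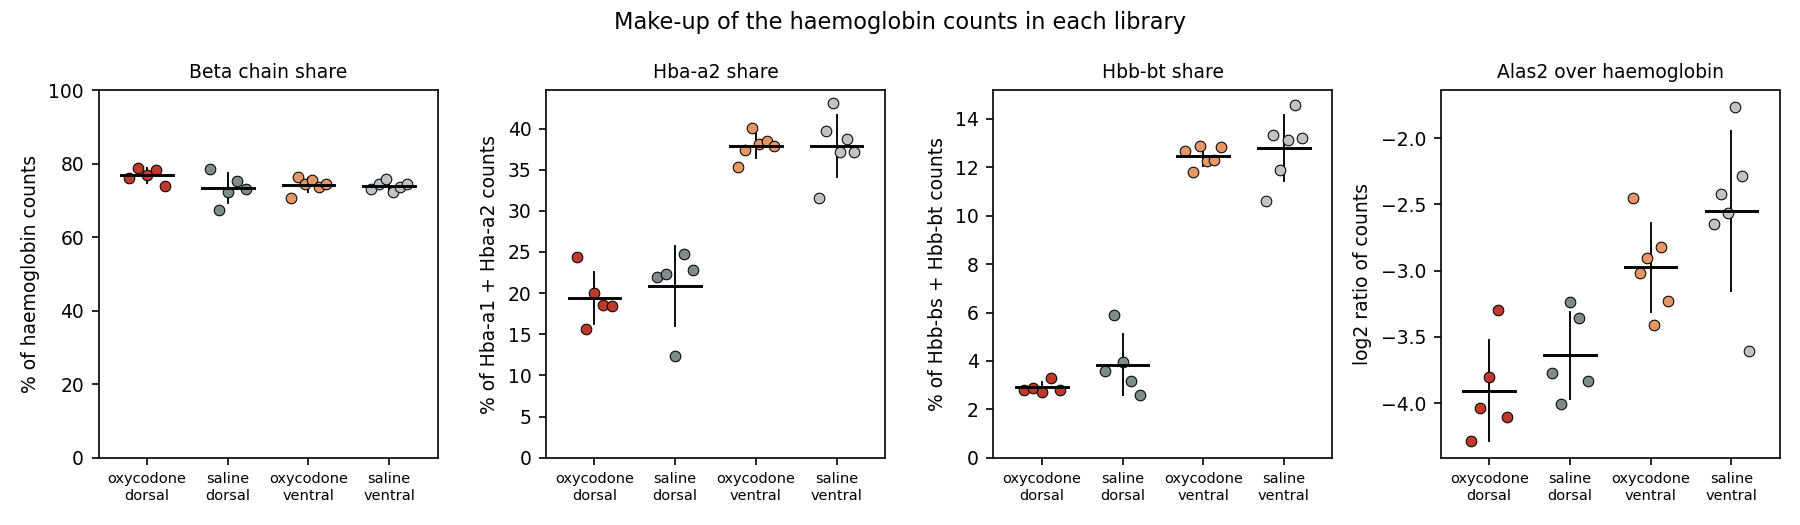
Make-up of the haemoglobin counts in each library (points) with the group mean (bar) and 1 SD either way (line): the beta share of the 4 genes, the Hba-a2 share of alpha counts and the Hbb-bt share of beta counts, in percent, and the log2 ratio of Alas2 to haemoglobin counts. The minor copy shares separate dorsal from ventral libraries without overlap, while the beta shares lie near 75% in all groups; the log2 ratio axis does not start at 0.

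Of 33 further red cell genes in the table, 19 were tested in dorsal striatum. After oxycodone 1 was higher and none lower, against 0.206% of all genes tested called. The median log2 fold change was 0.01 against -0.01 over all genes tested. The list summed to 1619 to 1768 CPM in oxycodone and 1571 to 1771 CPM in saline dorsal libraries, much of it from genes that brain cells also express. The gene called was Ube2l6, which encodes a conjugating enzyme for the ubiquitin-like protein ISG15 and is also expressed outside red cells, at 11.5 ± 7.06 CPM in oxycodone and 3.05 ± 0.891 CPM in saline libraries (log2 1.92, SE 0.38, edgeR adjusted p = 0.0209). Its adjusted p was 0.157 without oxycodone replicate 5, and it also missed the threshold without oxycodone replicate 2 or any of saline replicates 2 to 5, by limma-voom (adjusted p = 0.625) and in the fit of all 4 groups (adjusted p = 0.225). Slc4a1, the band 3 anion exchanger of the red cell membrane, averaged 3.07 ± 1.42 CPM in oxycodone and 0.988 ± 0.62 CPM in saline dorsal libraries (log2 1.62, SE 0.60, edgeR adjusted p = 0.572), with 4 of 5 oxycodone libraries above all saline ones. In ventral striatum none of 17 tested red cell genes was called.

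Embryonic and theta globins had few counts. Hba-x, Hbb-bh1 and Hbb-bh2 had 0 counts in all 22 libraries, where a count of 0 allows up to 3 counts in a library, and Hbb-y had at most 4 counts in a library. The theta globin genes Hbq1a and Hbq1b reached 4 and 13 counts (0.432 and 1.14 CPM), each in a saline library. None of these 6 genes passed the filter. None of 4 tested globins of nervous tissue in dorsal striatum and none of 3 in ventral striatum was called.

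Of the 8 other genes of haem synthesis tested in dorsal striatum none was called, against 0.206% of all genes, with a median log2 fold change of -0.03. Alas1, the synthase of other tissues, averaged 102 ± 9.52 CPM in oxycodone and 95.8 ± 8.27 CPM in saline dorsal libraries (log2 0.09, SE 0.09, edgeR adjusted p = 0.998). Of 11 genes for clearing haem and haemoglobin none was called in either region. Hp encodes haptoglobin, which binds free haemoglobin in plasma, and averaged 7.80 ± 3.17 CPM in oxycodone and 2.95 ± 1.25 CPM in saline dorsal libraries (log2 1.41, SE 0.37, edgeR adjusted p = 0.134). Hp was higher in 5 of 5 oxycodone dorsal libraries than in any saline one, an order seen in 0.843% of all genes tested. In ventral striatum Hp averaged 2.82 ± 1.37 CPM in oxycodone and 0.784 ± 0.453 CPM in saline libraries (log2 1.81, SE 0.43, edgeR adjusted p = 0.329), and DESeq2 called it in both regions (adjusted p = 0.0258 in dorsal and 0.0367 in ventral striatum).

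Of 12 genes of iron handling tested in dorsal striatum 1 was higher, against 0.206% of all genes tested called. Cp, which encodes the ferroxidase ceruloplasmin, averaged 78.3 ± 6.19 CPM in oxycodone and 48.9 ± 5.81 CPM in saline libraries (log2 0.68, SE 0.11, edgeR adjusted p = 0.00502). For Cp every oxycodone library lay above every saline library, an order seen in 0.843% of all genes tested. Its adjusted p was 0.0521 without saline replicate 5, 0.553 in the fit of all 4 groups, 0.51 within libraries with the suffix P and 0.233 within those without it. In ventral striatum none of 11 was called.

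Some markers of white blood cells and of endothelium were also higher in oxycodone dorsal libraries, and their part in the haemoglobin and Alas2 levels was not tested. The 24 white blood cell markers in the table summed to 46.8 to 113 CPM in oxycodone and 35.5 to 51.9 CPM in saline dorsal libraries. Of 9 tested 3 were higher and none lower, against 0.206% of all genes tested called in this comparison. Ptprc, the leukocyte antigen CD45, averaged 28.4 ± 9.67 CPM in oxycodone and 13.6 ± 1.65 CPM in saline dorsal libraries (log2 1.07, SE 0.20, edgeR adjusted p = 0.0150), and Plac8 and Itgal were 4.34-fold and 4.39-fold higher (adjusted p = 0.0150 and 0.0162). All 3 missed the threshold without oxycodone replicate 2, without oxycodone replicate 5 and without saline replicate 5, with adjusted p up to 0.128, and Itgal also without saline replicate 3 (adjusted p = 0.0538). Plac8 and Itgal missed it by limma-voom (adjusted p = 0.079 each), and in the fit of all 4 groups Plac8 and Ptprc had an adjusted p of 0.261 and Itgal of 0.142. In ventral striatum the same list summed to 40.5 to 91.5 CPM in oxycodone and 21.1 to 87.0 CPM in saline libraries, and none of 7 tested was called. Of 8 microglial markers tested in dorsal striatum none was called, and 7 had a positive log2 fold change (median 0.26). The microglial list summed to 605 to 899 CPM in oxycodone and 595 to 619 CPM in saline dorsal libraries.

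The 16 endothelial markers summed to 1159 to 1494 CPM in oxycodone and 985 to 1115 CPM in saline dorsal libraries, with no overlap. How often other sets of genes separate in this way was not tested. Of 16 tested 2 were higher and none lower, against 0.206% of all genes tested called. A positive log2 fold change was found for 10 of the 16, with a median of 0.09 against -0.01 over all genes tested. Slc2a1, which encodes a glucose transporter of brain vessels, was 1.5-fold higher (adjusted p = 0.0162) and Ly6a 2.01-fold higher (adjusted p = 0.0431) in the edgeR test. In the sum Slc2a1 accounted for a mean of 248 CPM in oxycodone and 165 CPM in saline dorsal libraries. Itm2a, on the same list, had a lower mean after oxycodone, 24.6 against 30.6 CPM. Slc2a1 missed the threshold without oxycodone replicate 2 or without saline replicate 2, 3 or 5, and Ly6a in 6 of 10 fits that left out 1 library, by limma-voom (adjusted p = 0.111) and with the title suffix as a covariate (adjusted p = 0.134). In the fit of all 4 groups the adjusted p was 0.347 for Slc2a1 and 0.254 for Ly6a. Cldn5, a tight junction gene of the same cells, averaged 21.9 ± 4.61 CPM in oxycodone and 22 ± 5.87 CPM in saline dorsal libraries. None of the 16 was called in ventral striatum, where the list summed to 787 to 993 CPM in oxycodone and 665 to 1110.0 CPM in saline libraries. Of the platelet markers none of 3 tested in dorsal and none of 2 tested in ventral striatum was called. Pericyte and smooth muscle markers, 10 tested in each region, had none called. Choroid plexus markers varied widely among dorsal libraries of both treatments, from 84.7 to 3324 CPM in oxycodone and from 389 to 3630.0 CPM in saline libraries, and none of 10 tested was called.

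Genes whose library-to-library pattern was most like summed haemoglobin were sought over all 22 libraries with the group means removed, among 14350 genes with a mean of at least 1 CPM. Unnamed gene models were among these and were passed over in the list that follows. The 8 named genes outside the 5 with the highest Pearson correlation were Ube2l6 (0.869), Tent5c (0.855), Ptprc (0.848), Adgrf5 (0.839), Fcgr4 (0.827), H2-D1, Lyz2 and Icam1 (0.815 each). Alas2 had 0.873 by the same measure. Ube2l6 and Tent5c, a poly(A) polymerase gene, stand on the list of further red cell genes, and Ptprc on the list of white blood cell markers. Fcgr4 encodes an Fc receptor, H2-D1 a class I histocompatibility antigen, Lyz2 a lysozyme of myeloid cells, Icam1 an adhesion molecule and Adgrf5 an adhesion G protein-coupled receptor. For Ptprc, Adgrf5, Lyz2 and Icam1 the correlation was 0.556 to 0.586 within dorsal and 0.872 to 0.921 within ventral libraries, where oxycodone replicate 4 and saline replicate 6 stand apart. The libraries share depth and tissue make-up, and these correlations are a description.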

How the data were processed

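The authors deposited raw read counts per Ensembl gene for 22 libraries. Per the labels' protocols, total RNA was extracted with a column kit and stranded libraries were made after removal of ribosomal RNA. The submitters' processing notes name CASAVA 1.8.2, STAR 2.3 and featureCounts, and the builds mm10, GRCm38 and mm9 with no role; strand setting and multi-mapping reads are not given in the sources used here. Symbols and positions come from GENCODE M21, matched by identifier for 22205 of 23119 genes. Counts were compared with edgeR 4.0.16 (quasi-likelihood, robust, TMM, filterByExpr; R 4.3.3), with Benjamini-Hochberg adjustment over all genes tested and a threshold of 0.05, two-sided. Shares were compared with exact permutation tests. DESeq2 1.42.0 and limma-voom (limma 3.58.1), other scalings, no filter, summed copies, batches as labelled and leaving out each library were alternatives. The lowest chi-square per degree of freedom between libraries of a group was 2.88, so none was counted as a repeat. The 95% intervals come from the fits and include the spread between libraries, while floors (3 counts) cover counting error only. The main edgeR fit of each comparison was also run on simulated counts with known changes, and the outcome is not given here. The members and lists were chosen with earlier results of these data known. Genes named beside the members were, by rule, those of each list with the lowest p or past the threshold. The 8 most like summed haemoglobin were added, with unnamed gene models passed over. Cldn5 and Alas1 as defining genes of their list were named as well, as were the embryonic globins.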

Additional observations from a re-analysis of the deposited data

Results flagged for a closer look

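Within each group of 5 or 6 libraries, the highest and lowest library were checked for a gap that is large against the group's range (Dixon's test). This was done for each gene and for each measure of composition, in 36 groups of values. Chance gives about 1 such library in 20 independent groups, and 10 were found. The 36 groups are not independent, because they use the same libraries and the genes correlate. Of the 10, 5 were saline ventral replicate 6, so the number found cannot be set against chance. Saline ventral replicate 6 stood high in all 5 genes, with 102 CPM of Hba-a1, 60.4 CPM of Hba-a2, 413 CPM of Hbb-bs, 62.8 CPM of Hbb-bt and 52.4 CPM of Alas2. This is the library with the lowest Drd1. Oxycodone ventral replicate 4 stood high in both alpha genes, with 110.4 CPM of Hba-a1 and 67.9 CPM of Hba-a2. Oxycodone dorsal replicate 5 stood high in Alas2, with 97.8 CPM. Saline dorsal replicate 3 had a low Hba-a2 share of alpha counts, 12.3%, and oxycodone dorsal replicate 4 a high Hbb-bt share of beta counts, 3.29%.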

How the results depend on the processing

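The number of genes called in the dorsal oxycodone comparison depended on the method, with 85 by DESeq2, 58 without robust dispersions, 15 by limma-voom, 17 among libraries without the suffix P, 1 among those with it, 5 in a fit of all 4 groups, and 1 to 63 when 1 library was left out. In ventral striatum DESeq2 called 38 and limma-voom 61 genes. Alas2 in dorsal striatum lost its call in the fit of all 4 groups (log2 0.76, adjusted p = 0.277), with the suffix (0.76) and without it (0.67), and in 4 of 10 fits that left out 1 library (0.56 to 0.77, against 0.56 to 0.83 over all 10). Hbb-bs gained a call there by DESeq2 (1.15), without robust dispersions (1.15) and without the suffix (1.07), and Hba-a1 without robust dispersions (0.97) and without the suffix (0.77). In ventral lane 2 the log2 fold changes reversed, to -0.50 for Hba-a1, -0.46 for Hba-a2, -0.49 for Hbb-bs, -0.60 for Hbb-bt and -0.30 for Alas2; Alas2 also reversed when 1 library was left out (-0.088 to 0.28).

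Between regions in saline mice, the sums of the copies gave 0.95 for alpha and 0.90 for beta, neither called; most of each sum is Hba-a1 or Hbb-bs. Hbb-bs gained a call by DESeq2 (1.04), limma-voom (1.71), without robust dispersions (1.05) and with title number as a replicate block (1.47). Leaving out 1 library gave Hba-a1 1.12 to 1.84 (called in 7 of 11), Hbb-bs 0.87 to 1.60 (called in 1 of 11) and Hba-a2 -0.0334 to 0.67 (called in 1 of 11). The Hbb-bs and Hba-a2 calls came without saline ventral replicate 6. In oxycodone mice the sums gave 1.47 for alpha and 1.57 for beta, both called. Alas2 gained a call on upper quartile factors (0.70), on library totals (0.71), by DESeq2 (0.67), without robust dispersions (0.67) and with the replicate block (0.66). When 1 library was left out Alas2 gave 0.51 to 0.90 and was called in 1 of 11 fits. That fit left out oxycodone ventral replicate 4 (0.90, edgeR adjusted p = 0.00289). Correlations of deviations between libraries with the same title number ran from -0.08 to 0.31, and 2 of 10 dorsal libraries correlated best with their own number, so the numbers were not taken to pair libraries. The block moved no other call of the 5 genes.

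The difference of the oxycodone effect reversed by limma-voom for Hba-a1 (-0.12), Hba-a2 (-0.31), Hbb-bs (-0.0165) and Hbb-bt (-0.091), and without both sixth ventral libraries for Hba-a2 (-0.14) and Hbb-bt (-0.27); with 1 library left out Hba-a2 ran from -0.11 to 0.76 and Hbb-bt from -0.24 to 0.71. In ventral striatum the oxycodone difference of the Hba-a2 share was -0.141 points without both sixth libraries, and with 1 library left out it ran from -1.26 to 1.05, the Hbb-bt share from -0.757 to 0.0338, the beta share from -0.21 to 0.92 and the Alas2 log2 ratio from -0.64 to -0.27. With 1 library left out, region differences of the beta share ran from 1.94 to 3.37 in oxycodone and from -1.90 to 0.89 in saline mice, and those of the Alas2 ratio from -1.08 to -0.83 (called in 8 of 11) and from -1.30 to -0.94 (called in 1 of 11). Without the 2 farthest libraries the dorsal correlations were 0.564, 0.748, 0.745 and 0.275 for Hba-a1 with Hba-a2, Hbb-bs, Hbb-bt and Alas2, 0.500, 0.476 and -0.0333 for Hba-a2 with Hbb-bs, Hbb-bt and Alas2, 0.612 and 0.719 for Hbb-bs with Hbb-bt and Alas2, and 0.302 for Hbb-bt with Alas2; on library totals Hba-a2 with Alas2 gained a call (0.642). The causes were not tested. Depth limits only the genes near 0 counts, such as the embryonic globins.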

Other observations

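Libraries of the regions carry title numbers, and the labels do not say that a shared number marks a shared mouse. Set side by side after the values were seen, the oxycodone libraries numbered 7 had the highest summed haemoglobin of their group in each region, with 1684 CPM in dorsal and 731 CPM in ventral striatum. The other oxycodone numbers found in both regions did not keep their order. Number 1 had 1192 CPM in dorsal and 116 CPM in ventral striatum, number 3 had 858 and 784 CPM in its pair of dorsal libraries and 366 CPM in ventral striatum, and number 5 had 539 CPM in dorsal and 265 CPM in ventral striatum. Saline number 2 had the highest dorsal sum of its group, 586 CPM, and 232 CPM in ventral striatum, below saline ventral replicate 6 with 638 CPM, whose number 12 has no dorsal library.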
